A study of Mus musculus with 6 samples.

Results

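*Keg1*, *Glyat*, *Acsm1*, *Acsm3* and *Acsm5* form a set of acyl-CoA glycine transferases and medium-chain acyl-CoA synthetases, measured by 8 probes of the 25697 on the liver array, or 5 of its 18138 gene symbols. The 5 genes were selected on their symbols with the contrast between hSRY-ON and hSRY-OFF livers already known, so the values of these same arrays chose them and are given as a description without a test. RNA came from the liver of male mice of the FVB/N background at postnatal day 6, with 3 arrays of hSRY-ON and 3 of hSRY-OFF animals. The transgene line carries a single-copy *Signalox-hSRY* cassette at the *H11* locus, driven by the ubiquitous CAG promoter, and the study rests on that 1 integration. In hSRY-ON mice, Cre recombinase carried over from the oocytes of *Ddx4-Cre* mothers had recombined the transgene in the single-cell embryo, which placed FLAG-tagged human *SRY* and EGFP under the promoter, and animals without the *Ddx4-Cre* transgene itself were used. In hSRY-OFF mice, by the methods of the study, the same cassette was not recombined and expressed DsRed2 instead. Elsewhere the study uses as controls littermates without the cassette, some with *Ddx4-Cre*, and the labels give only hSRY-OFF, so which of these genotypes the control arrays carry was not settled here. The array holds no probe for human *SRY*, so the labels were not checked against the transgene. Whether replicates of a group shared a litter was not given in the sources used here. The study reports that hSRY-ON pups hardly suckled, lacked milk in the stomach, grew more slowly and had fatty livers. Some had died before this age. The groups thus differed in feeding, growth and survival as well as in the transgene, and the part of each in the differences below was not tested.

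Glycine conjugation is a route by which mitochondria of the liver and kidney clear small carboxylic acids. An acyl-CoA synthetase of the ACSM family first joins the acid to coenzyme A, and a glycine N-acyltransferase then passes the acyl group to glycine, which makes benzoate into hippurate and frees the coenzyme A. *Glyat* encodes the transferase itself, *Keg1* (kidney expressed gene 1) a relative of it in rodents, and the *Acsm* genes synthetases that prefer medium-chain acids. The route matures after birth, and its acids come largely from plant food, gut microbes and fatty acid breakdown.

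*Glyat* lies near *Keg1*, and *Acsm3* lies at the other end of the cluster of *Acsm* genes from *Acsm5*. The proximal promoters of these genes are shown so that the 2 members with a large fall can be read beside those without one. Each is the stretch of 250 bases before the annotated start, from RefSeq (GRCm38.p6), on the plus strand, at chr19:12695540-12695789 for *Keg1*, chr19:12633058-12633307 for *Glyat*, chr7:119526015-119526264 for *Acsm5* and chr7:119760673-119760922 for *Acsm3*. Capitals mark matches to any of 3 motifs searched on both strands, the SOX core AACAAT, the STAT5 motif TTCNNNGAA and the nuclear receptor half-site AGGTCA.
Keg1: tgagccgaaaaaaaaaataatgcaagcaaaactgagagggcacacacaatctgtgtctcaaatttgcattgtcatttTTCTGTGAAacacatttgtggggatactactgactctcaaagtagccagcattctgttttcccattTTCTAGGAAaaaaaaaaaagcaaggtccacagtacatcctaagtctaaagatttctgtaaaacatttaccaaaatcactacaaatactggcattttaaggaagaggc
Glyat: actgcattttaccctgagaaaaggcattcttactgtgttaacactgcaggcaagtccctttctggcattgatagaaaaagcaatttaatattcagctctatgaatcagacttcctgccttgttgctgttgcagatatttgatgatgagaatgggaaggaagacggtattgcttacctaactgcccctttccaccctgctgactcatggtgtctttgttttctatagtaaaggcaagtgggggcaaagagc
Acsm5: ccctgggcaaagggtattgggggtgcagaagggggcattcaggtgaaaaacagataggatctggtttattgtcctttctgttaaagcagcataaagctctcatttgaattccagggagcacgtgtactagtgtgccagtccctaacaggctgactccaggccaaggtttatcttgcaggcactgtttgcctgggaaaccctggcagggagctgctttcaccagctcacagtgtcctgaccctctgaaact
Acsm3: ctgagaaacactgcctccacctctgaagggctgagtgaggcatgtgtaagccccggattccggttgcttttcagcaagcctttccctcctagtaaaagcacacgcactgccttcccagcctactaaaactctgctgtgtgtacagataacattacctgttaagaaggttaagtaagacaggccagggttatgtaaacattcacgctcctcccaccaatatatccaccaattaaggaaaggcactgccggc

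The *Keg1* window held 2 matches, both to the STAT5 motif, at 173 to 165 and at 107 to 99 bases before the start, which do not overlap. The windows of *Glyat*, *Acsm5* and *Acsm3* held 0 matches to any of the 3 motifs. The *Acsm1* window, not printed, held 1 nuclear receptor half-site. Among all 32851 promoter windows of this length, 7.02% held the STAT5 motif, 9.42% the SOX core and 14.0% the nuclear receptor half-site. The *Keg1* window had a GC content of 36%, against 42.8% for *Glyat*, 51.2% for *Acsm5* and a median of 52.4% over all windows. A match describes the letters only, and binding of any factor was not measured.

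Array quality was alike in both groups. Median deposited intensities lay between 147 and 165, and the arrays detected between 10318 and 10762 probes (detection p under 0.01). Levels below are log2 intensities after background correction with an offset of 16 and quantile normalization, differences are hSRY-ON minus hSRY-OFF on that scale, and ± gives the SD of 3 arrays for a level and the SE of the fit for a difference. Different probes have different brightness, so levels were not used to rank genes against each other. Levels of probes were compared to choose the brightest probe of a gene. Sums over marker lists add probes of unlike brightness and are weighted to the bright ones. Of the 10734 probes detected on at least 3 of the 6 arrays and so tested, 33.1% passed an adjusted p of 0.05 by limma, 17.2% as lower and 15.8% as higher in hSRY-ON livers. The median difference over all tested probes was 0.02.

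Among the transferases, *Keg1* was high in every hSRY-OFF liver and low in every hSRY-ON liver. The deposited intensities were 3693, 3545 and 2912 on the hSRY-OFF arrays and 286, 247 and 247 on the hSRY-ON arrays. After normalization these became levels of 11.64, 11.55 and 11.61 against 7.11, 6.98 and 7.18. The groups lay far apart and hardly varied within themselves, with means of 11.60 ± 0.04 and 7.09 ± 0.10 (SD, n = 3 each). The difference was -4.51 ± 0.11 (95% confidence interval -4.78 to -4.24), a level 22.8-fold lower in hSRY-ON livers. *Keg1* remained detected on all 6 arrays. Its fall ranked 10th among the 10734 tested probes. Leaving out any 1 array moved the difference only between -4.57 and -4.46. The size did depend on how background was treated, and without background correction the difference was -3.63.

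*Glyat*, the classical glycine N-acyltransferase, showed no such fall. Its levels were 9.99, 9.61 and 9.41 in hSRY-OFF livers and 9.94, 9.67 and 10.24 in hSRY-ON livers. The groups overlapped, and the highest and the lowest value belonged to different groups. The difference was 0.28 ± 0.20, with a 95% confidence interval from -0.20 to 0.75. The interval held both a small fall and a rise. It is given as a description only, since the set was chosen with this contrast known.

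Among the synthetases, *Acsm5*, an enzyme of the mitochondrial matrix, was lower in every hSRY-ON liver. Its brighter probe gave levels of 9.05, 9.33 and 9.35 in hSRY-OFF livers and of 6.66, 7.02 and 6.58 in hSRY-ON livers. The groups did not overlap, and the probe was detected on all 6 arrays. The difference was -2.49 ± 0.16 (95% confidence interval -2.86 to -2.11), or 5.61-fold lower, and the fall ranked 73rd among the tested probes. Without background correction it was -1.65, and leaving out any 1 array gave values between -2.62 and -2.41. The second *Acsm5* probe was dim, with levels of 6.02, 5.67 and 6.16 in hSRY-OFF livers and 4.49, 4.78 and 4.94 in hSRY-ON livers. Only 2 hSRY-OFF arrays detected it, against 0 of the hSRY-ON arrays, so it was not tested. Its signal also did not overlap between the groups, and holding each undetected hSRY-ON array at its lowest detected signal gave a fall of at least 1.19-fold.

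*Acsm3*, first described as the SA gene of hypertensive rats, differed by less than its spread. Its brightest probe gave levels of 10.64, 10.88 and 10.71 in hSRY-OFF livers and of 10.66, 10.81 and 10.22 in hSRY-ON livers. Only hSRY-ON replicate 3 lay below all hSRY-OFF values. The difference was -0.18 ± 0.18 (95% confidence interval -0.59 to 0.23), and without that array it was -0.01. A second probe gave -0.14 ± 0.19, from levels of 6.57, 6.92 and 6.81 against 6.44, 6.99 and 6.44, and again the groups overlapped. The third *Acsm3* probe was detected on 0 arrays, with levels between 4.51 and 4.75.

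*Acsm1*, a butyryl-CoA synthetase, was not detected on any array. Its only probe read between 4.48 and 4.63 on the normalized scale on all 6 arrays, below the lowest signal of a detected probe (5.61 to 5.79 by array). No direction can be given for it at this signal.

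Of the 8 probes, 5 passed the detection filter and entered the fit over all probes. By the rule used there 2 of them would count as lower and 0 as higher, and in the same 2 every hSRY-ON value lay below every hSRY-OFF value. Over all tested probes 17.2% counted as lower and 24.6% had every hSRY-ON value below every hSRY-OFF value. Since this contrast was used to choose the genes, nothing is read from that count.

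**Figure D1:**
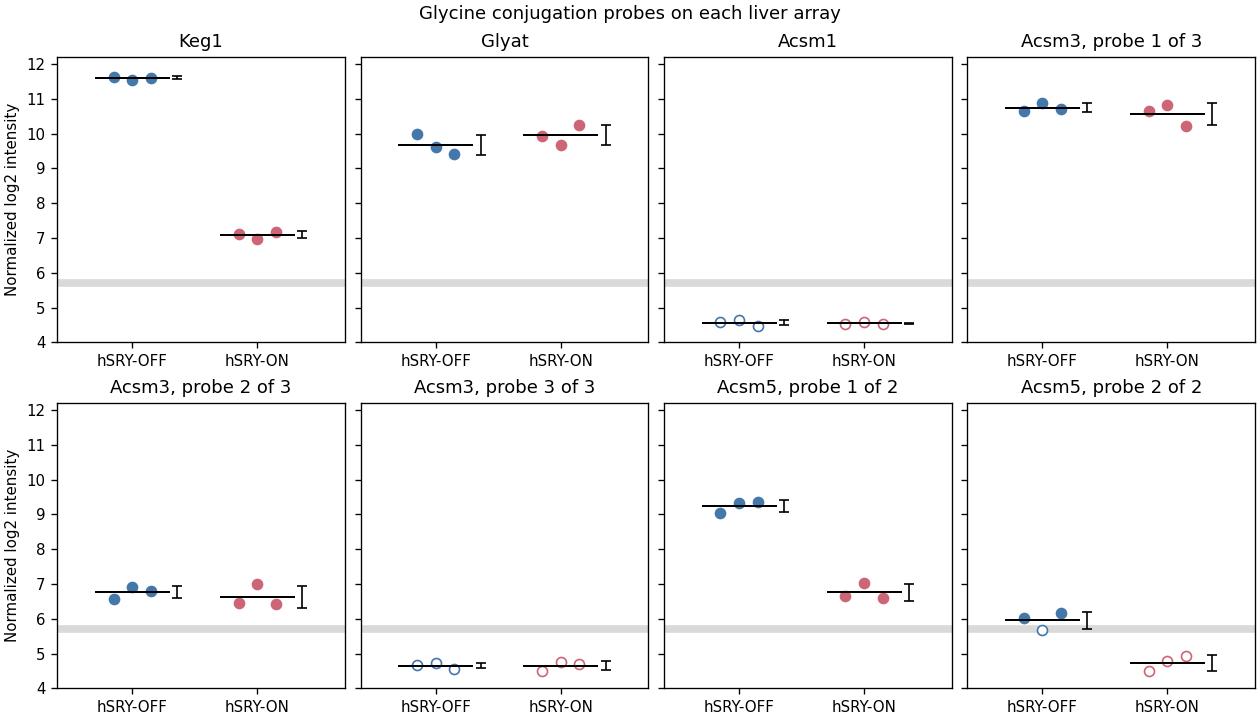
Normalized log2 intensity of each of the 8 probes (vertical axis) in 3 hSRY-OFF and 3 hSRY-ON livers. Filled points were detected and open points were not, the horizontal line is the group mean, the bar beside it ± 1 SD, and the grey band the lowest signal of a detected probe over the arrays. *Keg1* fell from about 11.60 to 7.09 and the brighter *Acsm5* probe from 9.24 to 6.75, while *Glyat* and *Acsm3* overlapped between groups and *Acsm1* stayed below the band.

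**Figure D2:**
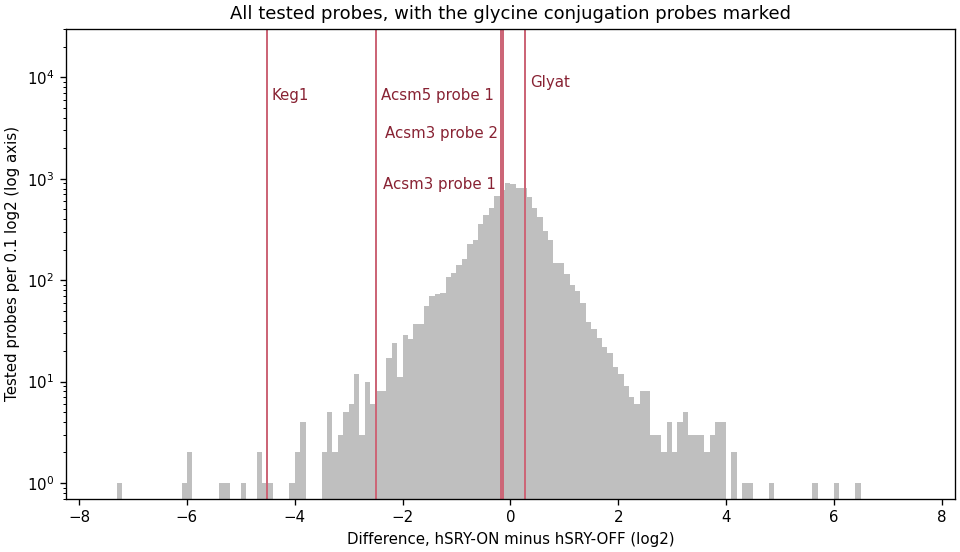
Number of tested probes (vertical log axis, bins of 0.1) by their difference between hSRY-ON and hSRY-OFF livers in log2 (horizontal axis), over 10734 probes, with the 5 tested probes of the set as vertical lines. *Keg1* at -4.51 and *Acsm5* at -2.49 lay in the sparse left tail, and *Glyat* and both *Acsm3* probes within the central mass.

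Glycine conjugation has 2 homes in the mouse, and *Keg1* is named for the kidney, so markers of other tissues were read beside its fall. Of 10 kidney tubule markers on the array, 9 were detected on 0 arrays, among them *Umod*, *Slc34a1*, *Kap* and *Lrp2*. The exception was *Slc12a3*, for which 1 of 3 probes was detected on all arrays and differed by 0.09 ± 0.11. The summed normalized intensity of the kidney list was 723 to 733 in hSRY-OFF livers and 715 to 785 in hSRY-ON livers. Most of that sum came from the detected *Slc12a3* probe, with group means of 8.94 and 9.03, so it says little on the other markers. The defining kidney markers were therefore not above background in either group, apart from that probe.

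Hepatocyte markers were present throughout. Of 9 on the array, 8 were detected on all 6 arrays, and the exception was *Fgb*. The summed intensity of the list was 191614 to 197756 in hSRY-OFF livers and 180507 to 187806 in hSRY-ON livers, so the ranges did not overlap. Most of that sum came from *Ahsg*, *Trf*, *Apoa1* and *Apoa2*, with group means of 14.94 to 15.42, near the top of the scale. The *Alb* probe was dim, with deposited intensities of 202 to 448, and added little to the sum. By limma, 3 of them were lower in hSRY-ON livers and 0 higher, beside 17.2% and 15.8% of all tested probes. These were *Alb* (-1.11 ± 0.22, adjusted p = 0.00848, and -0.64 without background correction), *Serpina1a* (-1.11 ± 0.27, adjusted p = 0.0176) and *Ttr* (-0.46 ± 0.11, adjusted p = 0.0173). Without any 1 of the 3 hSRY-OFF arrays *Serpina1a* and *Ttr* no longer passed (adjusted p up to 0.0606 and 0.0574, with lowest values of 0.00279 and 0.00192 over all alternatives). The other hepatocyte markers did not fall alike. *Cps1* differed in the other direction without passing (0.45 ± 0.20, adjusted p = 0.126). *Ahsg*, *Trf*, *Apoa1* and *Apoa2* did not pass, with differences of 0.01, -0.06, -0.12 and -0.14. Deposited intensities of these probes ran from 28374 to 45586, near the array maxima of 44365 to 47161. A fall could be hidden at such signals, so these differences say little. A dimmer *Ahsg* probe, with group means of 13.64 and 13.60, differed by -0.04 ± 0.14. In whole liver, fewer hepatocytes and less RNA per hepatocyte cannot be told apart.

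Markers of other cells moved as well. Summed erythroid intensity was 63608 to 82039 in hSRY-OFF and 79969 to 92248 in hSRY-ON livers, with 6 of 7 markers detected on all arrays. A large part of each sum came from *Hba-a1*, which read the maximum of every array (15.50 in both groups). That part could not differ between the groups. *Alas2*, the erythroid enzyme of heme synthesis, was the only marker of that list past the threshold (0.93 ± 0.20, adjusted p = 0.0116, which became 0.0524 without hSRY-OFF replicate 1 and 0.0502 without replicate 2). The stellate list summed to 6396 to 7116 and 14823 to 15753, a rise carried mainly by *Acta2*, the smooth muscle actin (2.46, SE 0.13). Of its 6 markers 2 were higher, *Acta2* and *Des* (0.77 ± 0.23). *Lrat* was the 1 lower, and it was not above background on any hSRY-ON array. It entered the test only through the hSRY-OFF group, where it was high, so its call had to be a fall. *Dcn*, *Col1a1* and *Col3a1* did not pass (0.16 ± 0.17, -0.47 ± 0.16 and -0.21 ± 0.17). Macrophage markers summed to 6035 to 8213 and 4049 to 5228, with 3 of 7 lower and 0 higher by their brightest probes. *Marco* and the brighter *Csf1r* probe did not pass, and the dimmer *Csf1r* probe was higher (0.48 ± 0.15, adjusted p = 0.0433). Of the endothelial list 2 of 5 were higher and 0 lower, and of the cholangiocyte and intestine lists 0 passed. Over all tested probes 17.2% were lower and 15.8% higher. In the pancreatic list *Ela1* (now *Cela1*) was higher (0.44 ± 0.13, adjusted p = 0.0396), a call kept without hSRY-ON replicate 2 but lost without any other array (adjusted p up to 0.146, lowest 0.0227 over its alternatives). Pancreatic *Amy2*, *Cpa1*, *Cpb1* and *Ctrb1* stood out on hSRY-ON replicate 2, the only hSRY-ON array that detected them, and without that array the *Keg1* difference was -4.46 and that of *Acsm5* -2.62. The part of these shifts in the falls of *Keg1* and *Acsm5* was not tested beyond those values.

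The relatives of the set were then read from lists of genes around the pathway, taking for each gene its brightest tested probe. Of 99 genes in 6 lists 94 were on the array and 70 were tested, of which 23 (32.9%) were lower and 6 (8.57%) higher in hSRY-ON livers, against 17.2% and 15.8% of all tested probes. These lists were written with earlier results known, and nothing is claimed as particular to them. The median difference was -0.17 against 0.02 over all tested probes.

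The acyltransferase list held 1 tested gene, *Gm4952*, a member of the glycine N-acyltransferase family that lies next to *Glyat*. Its levels were 11.85, 11.94 and 11.90 in hSRY-OFF livers and 10.62, 10.91 and 10.27 in hSRY-ON livers, with no overlap. It fell by 1.30 on the log2 scale (SE 0.17, adjusted p = 0.00191). Under each of the 14 alternatives it stayed lower and past the threshold, with differences from -1.46 to -1.14. *Baat*, which conjugates bile acids to taurine or glycine, was detected on 0 arrays, with levels between 4.56 and 4.98.

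Of 12 tested acyl-CoA synthetases outside the set, 4 (33.3%) were lower and 2 (16.7%) higher, beside the same 17.2% and 15.8%. *Acsl5*, a long-chain synthetase, fell by 0.65 (SE 0.12, adjusted p = 0.00745). *Slc27a5*, the bile acyl-CoA synthetase of the liver, had levels of 12.16, 12.25 and 12.35 against 11.27, 11.75 and 10.72, a difference of -1.01 ± 0.25 (adjusted p = 0.0189). *Aacs*, which activates acetoacetate, gave -0.59 ± 0.15 (adjusted p = 0.0195). *Acsl4*, which prefers arachidonate, rose by 1.34 (SE 0.20, adjusted p = 0.0032) and by 0.86 without background correction, although its second tested probe differed by only 0.19 ± 0.19. *Acss1*, the mitochondrial acetyl-CoA synthetase, was just past the threshold (0.94 ± 0.30, adjusted p = 0.0478).

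Several of these calls were lost when 1 array was left out. *Slc27a5* did not pass when any of the 3 controls was left out, nor without hSRY-ON replicate 1 (adjusted p of 0.0530 to 0.0634, with 0.00487 as the lowest over its alternatives). *Aacs* did not pass when any of the 3 controls was left out, nor without hSRY-ON replicate 1 or 2 (0.0504 to 0.0643, lowest 0.00888). *Acss1* passed in only 5 of 14 alternatives. *Acsm2*, the medium-chain synthetase beside *Acsm5*, was detected on 0 arrays.

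Of 17 tested enzymes and transporters of glycine itself, 7 (41.2%) were lower and 2 (11.8%) higher, against 17.2% and 15.8% of all tested probes. *Gamt*, which makes creatine from the glycine-derived guanidinoacetate, had levels of 12.80, 13.03 and 12.85 in hSRY-OFF livers and 9.62, 10.69 and 10.54 in hSRY-ON livers. It fell by 2.61 (SE 0.27, adjusted p = 0.000752). *Agxt2*, a mitochondrial aminotransferase that can use glyoxylate to make glycine, fell by 1.78 (SE 0.13, adjusted p = 0.000184). *Sardh*, which makes glycine from sarcosine, fell by 1.55 (SE 0.12, adjusted p = 0.000247), and by 0.92 without background correction.

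The glycine list also held rises and genes without a difference. *Psat1*, of serine synthesis, rose by 1.38 (SE 0.24, adjusted p = 0.00536), and *Alas1*, which consumes glycine in the first step of heme synthesis, by 1.16 (SE 0.11, adjusted p = 0.000431). *Gldc*, the decarboxylase of the glycine cleavage system, fell by 0.64 (SE 0.14, adjusted p = 0.013), and without hSRY-OFF replicate 1 its adjusted p was 0.0522. *Gnmt*, which methylates glycine and is among the abundant enzymes of adult liver, differed by -0.03 ± 0.23 (adjusted p = 0.923), and its groups overlapped. *Gatm*, the enzyme before *Gamt* in creatine synthesis, was detected on 0 arrays.

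Mitochondrial enzymes that use short and medium-chain acyl-CoA were mostly not past the threshold, with 12 of 14 not called. *Acadm*, the medium-chain acyl-CoA dehydrogenase, which shares substrates with the ACSM enzymes, had a difference of 0.29 ± 0.18 (adjusted p = 0.267, but 0.45 with an adjusted p of 0.0385 without hSRY-ON replicate 3, and 0.622 at most over its alternatives). *Acaa2*, the last enzyme of the mitochondrial spiral, had -0.51 ± 0.14 (adjusted p = 0.0283), and its 3 other probes also passed as lower. Its brightest probe did not pass when any of the 3 controls was left out, nor without hSRY-ON replicate 1 (adjusted p of 0.0514 to 0.0902, lowest 0.00901). *Acot2*, a mitochondrial acyl-CoA thioesterase, was seen above background on 3 hSRY-ON arrays but on 0 hSRY-OFF arrays, which gives a rise of at least 3.19-fold on the background-corrected scale. It entered the test only through the group where it was high, so its call had to be a rise. Without background correction its difference was 0.91, and a second tested probe differed by -0.08 ± 0.14.

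Of 10 tested genes of coenzyme A supply 2 were lower and 0 higher, and the lower share was near the 17.2% of all tested probes. *Vnn3*, a pantetheinase that breaks down a product of coenzyme A, had levels of 11.91, 12.05 and 12.06 against 10.38, 10.66 and 10.58. It fell by 1.47 (SE 0.13, adjusted p = 0.000352), and its second probe by 1.51. *Coasy*, which carries out the last steps of coenzyme A synthesis, fell by 0.64 (SE 0.13, adjusted p = 0.0107).

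Of 16 tested liver regulators (transcription factors and hormone receptors of hepatocytes, and *Socs2*), 8 were lower and 1 higher, again beside 17.2% and 15.8% of all tested probes. *Prlr*, the prolactin receptor, had levels of 9.87, 10.15 and 10.02 in hSRY-OFF livers and 8.05, 7.06 and 8.34 in hSRY-ON livers, and fell by 2.19 (SE 0.31, adjusted p = 0.0024). *Ghr*, the growth hormone receptor, fell by 1.31 (SE 0.17, adjusted p = 0.00158) and by 1.03 on a second probe.

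Factors within that list differed from each other. *Cebpa* fell by 1.66 (SE 0.27, adjusted p = 0.00389), while *Cebpb*, its relative of the acute response, rose by 1.39 (SE 0.20, adjusted p = 0.00264). *Nr1i3*, the xenobiotic receptor CAR, fell by 1.39 (SE 0.22, adjusted p = 0.00347). *Hnf4a* differed by -0.09 ± 0.21 (adjusted p = 0.768), and its groups overlapped.

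**Figure D3:**
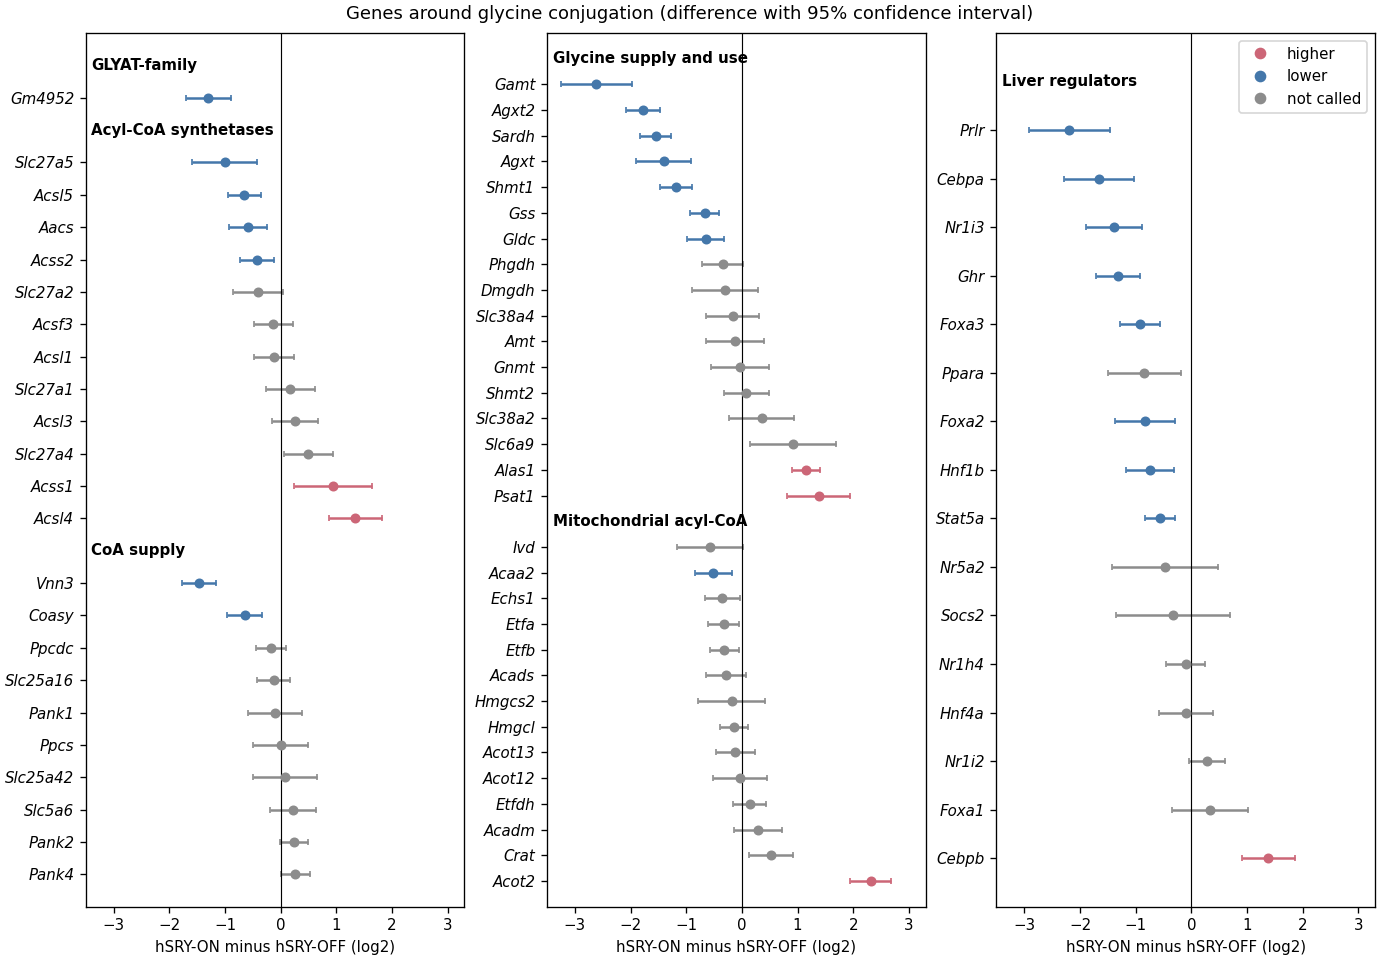
Difference between hSRY-ON and hSRY-OFF livers in log2 (horizontal axes) with its 95% confidence interval for the 70 tested genes around glycine conjugation, 1 probe per gene, 3 arrays per group. Blue marks the 23 genes past the threshold as lower, red the 6 as higher and grey the 41 not called, with lower genes in every list.

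Gene order gave a further view of the set. In RefSeq (GRCm38.p6) *Gm4952*, *Glyat* and *Keg1* follow each other on chromosome 19 with only the olfactory receptors *Olfr1442* and *Olfr1443* between them. On chromosome 7 *Acsm5*, *Acsm2*, *Acsm1* and *Acsm4* are followed by *Thumpd1*, by *Ppp1ccb*, which has no probe, and then by *Acsm3*. The neighbours, 4 protein-coding genes to each side, were looked up after the values had been seen. Along the first cluster the differences ran -1.30 for *Gm4952*, 0.28 for *Glyat* and -4.51 for *Keg1*, so the gene between the 2 with falls was the one without. Both olfactory receptors were not tested.

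Outside that cluster, *Lpxn*, a focal adhesion protein, was lower (-0.84 ± 0.13, adjusted p = 0.00311, and -0.51 without background correction), and *Fam111a* did not pass (-0.34 ± 0.21, adjusted p = 0.234), except without hSRY-ON replicate 3 (adjusted p = 0.0465, the lowest of a range up to 0.485). *Dtx4* was lower (-0.95 ± 0.24, adjusted p = 0.0198) and *Zfp91* higher (0.47 ± 0.12, adjusted p = 0.0238). Neither held when hSRY-OFF replicate 1 was left out (adjusted p = 0.0513 and 0.0761, with ranges over all alternatives of 0.0123 to 0.0639 and 0.0137 to 0.0845). Without background correction *Dtx4* differed by -0.46. Without hSRY-OFF replicate 2 or hSRY-ON replicate 1, too, neither passed, and *Zfp91* also missed the threshold without hSRY-OFF replicate 3 and under median scaling.

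Along the *Acsm* cluster, *Acsm5* at its first end fell by 2.49 and *Acsm3* at its far end differed by -0.18. The 3 synthetases between them, *Acsm2*, *Acsm1* and *Acsm4*, were detected on 0 arrays. *Thumpd1*, between *Acsm4* and *Acsm3*, gave 0.34 ± 0.14 (adjusted p = 0.0933). Farther on, *Lyrm1*, detected on 2 of 3 hSRY-OFF arrays, was higher (0.74 ± 0.18, adjusted p = 0.0190, but 0.0615 without hSRY-OFF replicate 2), and *Dcun1d3* at 0.58 ± 0.19 passed (adjusted p = 0.0496) in only 2 of the 14 alternatives. Without background correction these last 2 differences were 0.28 and 0.26.

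**Figure D4:**
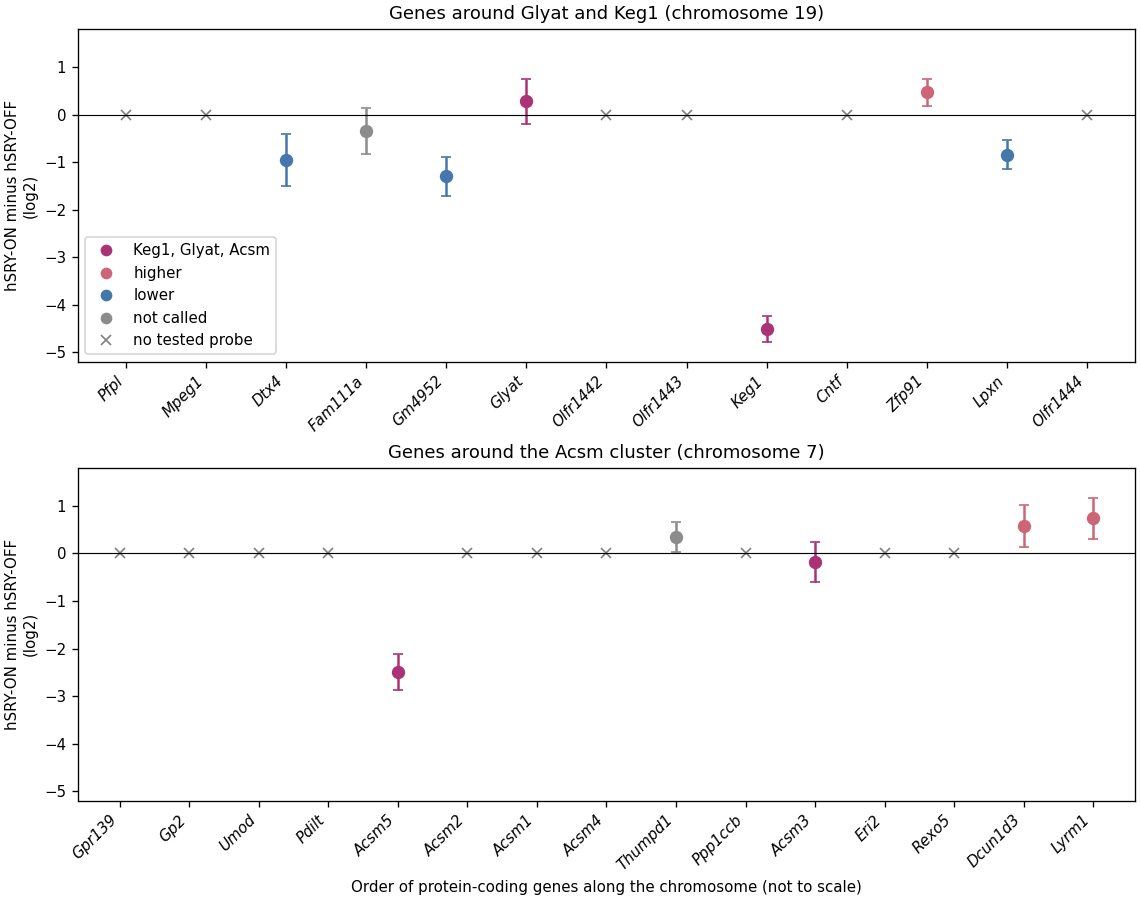
Difference between hSRY-ON and hSRY-OFF livers in log2 with 95% confidence interval (vertical axes) for protein-coding genes in their order along chromosome 19 (top) and chromosome 7 (bottom), 3 arrays per group, distances not to scale. Purple points are *Glyat*, *Keg1*, *Acsm5* and *Acsm3*, crosses genes without a tested probe, and *Keg1* at -4.51 stands beside neighbours between -1.30 and 0.47.

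The genes whose levels followed each member most closely over the 6 arrays were found by Pearson correlation. For *Keg1* these were *Slc47a1*, a transporter of organic cations, *1700019D03Rik* and *Mlxipl*, the carbohydrate response factor ChREBP, each with r = 0.999. For *Acsm5* they were *Ctps2* (r = 0.9995), *Gchfr* (r = 0.999) and *Pcdh24* (now *Cdhr2*, r = 0.999). Not all of these values were above background, since 0 hSRY-ON arrays detected *1700019D03Rik* or *Pcdh24*. The arrays fall into 2 groups for both members, so such values describe a shared difference between the groups more than a shared course within them, and *Keg1* and *Acsm5* themselves correlated at 0.988.

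For *Glyat* the closest were *Dnajc2* (r = 0.989), *Cma1* (r = 0.979) and *Pde2a* (r = 0.978), and for *Acsm3* they were *Ttc8* (r = 0.992), *Rab22a* (r = 0.990) and *Hdac5* (r = 0.989). Here the groups overlapped, and *Cma1* was detected on only 1 hSRY-OFF and 2 hSRY-ON arrays. The brightest *Acsm3* probe and *Glyat* ran in opposite directions over the 6 arrays (r = -0.80), which is a description of 6 points that share their arrays.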

How the data were processed

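The authors measured total RNA of 6 livers on Illumina MouseRef-8 v2.0 BeadChips. The deposited table gave, per probe and array, a mean bead intensity on a linear scale, without background subtraction or normalization, and the deposited detection p-value against negative control beads. 0 columns were without a sample. The study names TCC, a package for counts, and the submitters' processing notes name limma, neither with a version. Intensities are not counts, so no count model was used. Scanner software was not given in the sources used here.

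In R 4.3.3, limma 3.58.1 removed background inferred from the detection p-values (nec, offset 16), followed by quantile normalization and log2. Probes detected (p under 0.01) on at least 3 of 6 arrays were fitted with lmFit and eBayes without covariates. P-values, two-sided, were adjusted over all 10734 of these probes by Benjamini-Hochberg, and 0.05 was the threshold. The offset shrinks differences of dim probes. For a probe undetected throughout a group, "at least N-fold" sets each array of that group at the higher of its lowest detected signal and the probe's own. The procedure was tested on simulated data.

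The members and gene lists were chosen with earlier results of these data known, and members carry no p-value. Named were all members, from each list up to 3 genes per direction past the threshold with the largest difference among those without overlap, 8 genes listed by name (*Baat*, *Acsm2*, *Acadm*, *Gldc*, *Gnmt*, *Gatm*, *Hnf4a* and *Ghr*; another is not reported here), and the 3 closest genes by correlation per member. The chromosomal neighbours and the cell type markers named were chosen after their values were seen. Of 18138 symbols, 14307 were current in RefSeq (GRCm38.p6), 2927 matched through an older name and 904 kept the table's name. Probe sequences were not used here, so cross-hybridisation between relatives was not checked. Alternatives changed background correction, offset, scaling, variance model, replicate block, detection filter and threshold, or left out each array. With 3 arrays per group their number limits precision, and since no source says that litters were separate, p-values measure the spread between these samples.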

Additional observations from a re-analysis of the deposited data

How the results depend on the processing

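The falls of *Keg1* and *Acsm5* kept their direction under every alternative run. Their size moved with background treatment, to -3.63 and -1.65 without background correction and to -4.20 and -2.17 with an offset of 50, and median scaling gave -4.60 for *Keg1*. Leaving out each array in turn gave -4.57 to -4.46 for *Keg1*, -2.62 to -2.41 for *Acsm5*, 0.13 to 0.44 for *Glyat*, and -0.31 to -0.01 and -0.33 to -0.05 for the brighter and dimmer tested *Acsm3* probes.

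Over all probes, 1700 were higher and 1851 lower. At an adjusted p under 0.01 these became 695 and 974, and leaving out each array gave 854 to 1824 and 964 to 2126. The lowest counts came without hSRY-OFF replicate 1 (854 and 964), followed by replicate 2 (951 and 1013), and without hSRY-ON replicate 1 the higher count was 1073. Fewer arrays were fitted there. Of the related genes 4 to 7 were higher and 16 to 23 lower without 1 array, and 15 were lower at an adjusted p under 0.01. *Acot2* could not be fitted without any 1 hSRY-ON array, since the filter then removed it.

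No clear pairing by replicate number was seen. Same-numbered deviations correlated at 0.02, 0.10 and 0.05, against -0.17 to 0.13 for other pairs, and not every array correlated best with its own number. With 3 arrays per group this check cannot show whether arrays of the same number shared a litter or a chip. With a replicate block 1568 probes were higher and 1645 lower, and 6 and 22 related genes. The alternatives were compared for 38 of the genes named with a fitted difference beside the set itself. Among them *Acss1* (adjusted p = 0.0678), *Acaa2* (0.0591), *Dtx4* (0.0502) and *Ela1* (0.0631) missed the threshold with the block. Of the 38, 22 kept their side of the threshold under every alternative run, 16 did not, and 0 reversed. The other cell type markers named were not compared in this way.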
